A study of Mus musculus with 2 samples.

Results

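Cathepsins are the proteases of the lysosome. The data on 9 cathepsin genes (Ctsa, Ctsb, Ctsc, Ctsd, Ctsh, Ctsk, Ctsl, Ctss and Ctsz) and on Cst3 were taken from 2 single-cell libraries of mouse liver by gene symbol. Cst3 encodes cystatin C, a secreted inhibitor of the cysteine cathepsins. Each of the 10 symbols matched 1 row among the 32285 genes counted. In brief, among 11 cell classes Kupffer-like cells held the highest level of 7 of the 9 cathepsins, and Cst3 was highest in conventional dendritic-like cells. In the N-LKO library the Kupffer-like cells held more Ctsd, Ctsz, Ctsl and Cst3 and less Ctsc than in the WT library, and the endothelial-like cells held more Ctsb and Ctss, where the summed macrophage markers were higher too.

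Cathepsins are made on the endoplasmic reticulum as inactive precursors, receive N-glycans, and are carried to the lysosome by mannose-6-phosphate receptors that recognise a tag on those glycans. In the acid lumen they are cleaved into active enzymes and degrade protein taken up or delivered by autophagy. Ctsb, Ctsl, Ctss and Ctsk encode cysteine endopeptidases, which cut within a chain, and Ctsc, Ctsh and Ctsz encode cysteine proteases that trim chain ends. Ctsd encodes an aspartic protease, and Ctsa a serine carboxypeptidase that also stabilises lysosomal neuraminidase and beta-galactosidase. In liver, macrophages are rich in these enzymes because they clear debris and lipoprotein.

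The WT library came from liver of control mice, and the N-LKO library from liver plus tumor of mice lacking NgBR, the product of Nus1, in hepatocytes. How many animals went into each library was not given in the sources used here. NgBR is a subunit of the enzyme that makes dolichol, the lipid carrier on which N-glycans are built. The deletion was driven by albumin-Cre, which acts in cells of the hepatocyte lineage. Mice were male, on a C57BL/6 background, and both had a Western diet (WD) for 16 weeks by the treatment label, although the titles name a high-fat diet. Hepatocytes and nonparenchymal cells were mixed in equal parts for WT, and a smaller portion of tumor cells was added for N-LKO, so the mixture and not the organ sets how many cells of a class were caught. With 1 library per genotype there was no replicate check and no test: genotype, tumor tissue and library cannot be told apart. All intervals below are 95% intervals that cover counting error only.

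The files held 100171 WT barcodes with 85522287 UMIs (unique molecular identifiers, 1 per captured transcript) and 90147 N-LKO barcodes with 87575064 UMIs. After filtering, 18430 WT and 19853 N-LKO cells remained, with a median of 1400 and 1455 UMIs, and 121 cell barcodes were kept in both libraries. Levels are given on the counts-per-million scale (CPM), a UMI count divided by all UMIs of the class in that library. Nus1 stood at 73.0 CPM in WT hepatocyte-like cells and 37.0 in N-LKO hepatocyte-like cells. The hepatocyte-like cells of the libraries fell into different clusters, WT mainly in 1 cluster of 8298 cells and N-LKO in clusters of 2486 and 2003 cells. No cluster of this class had a hepatocyte marker among its 10 leading genes. The leading genes of the smaller N-LKO cluster included the acute phase genes Orm1 and Hamp, and the larger, led by Eda and Prlr, had an Alb level of 3985 CPM, against 16397 CPM in the smaller. Alb stood at 3993 CPM in N-LKO macrophage-like cells, so its level did not set the larger cluster apart from other classes. The macrophage-like cluster carried migratory dendritic genes (Il12b, Ccl22, Ccr7) among its leaders, and the conventional dendritic-like cluster carried granulocyte precursor genes (Prtn3, Elane, Mpo). Between 13.8% and 88.5% of the cells of a WT class, and between 22.6% and 85.8% in N-LKO, held UMIs of at least 2 markers of an unrelated class, hepatocyte markers not counted.

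The master regulators of lysosome genes, TFEB and its relatives, bind an E-box with the core CACGTG, so the promoters of the 10 genes were read for that core. RefSeq promoter windows (GRCm38.p6, 250 bases before to 50 after each start) were matched for 8 of the 10 genes, and Ctsb and Ctsh had no entry. CACGTG, which reads the same on both strands, stood in windows of 3 of the 8 genes (Ctsa, Ctsd and Ctsl), against 8.09% of all genes with a window. CACGTGAC on either strand, which contains that core, stood in Ctsa and Ctsd, against 2.55% of genes. TCACGTGA stood in the same genes, against 1.12% of genes. The longest motif searched, TCACGTGA with a G before it and a C after it, stood in 0 of the 8 genes, against 0.37% of genes. A match here is a description of letters, not of binding. The windows of Ctsd, Ctsa and Ctsl are shown for these matches, and that of Ctsc as an example without one. The windows of Ctsz, Cst3, Ctss and Ctsk held no core either. Capitals mark the CACGTG core and any flanking base that completes a longer motif.
Ctsd, chr7:142387778-142388077, minus strand: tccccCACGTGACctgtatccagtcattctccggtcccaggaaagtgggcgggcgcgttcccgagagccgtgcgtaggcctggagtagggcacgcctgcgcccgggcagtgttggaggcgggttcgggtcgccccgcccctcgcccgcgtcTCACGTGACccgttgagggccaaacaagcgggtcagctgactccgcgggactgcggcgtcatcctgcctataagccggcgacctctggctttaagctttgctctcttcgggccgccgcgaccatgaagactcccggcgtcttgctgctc
Ctsa, the second of 2 windows, chr2:164833523-164833822, plus strand: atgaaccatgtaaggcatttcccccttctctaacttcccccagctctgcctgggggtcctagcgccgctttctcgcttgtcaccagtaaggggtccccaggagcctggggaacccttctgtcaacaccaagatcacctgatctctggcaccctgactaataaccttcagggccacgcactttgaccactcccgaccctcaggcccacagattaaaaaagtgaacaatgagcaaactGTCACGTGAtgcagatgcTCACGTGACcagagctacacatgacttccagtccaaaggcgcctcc
Ctsl, chr13:64370471-64370770, minus strand: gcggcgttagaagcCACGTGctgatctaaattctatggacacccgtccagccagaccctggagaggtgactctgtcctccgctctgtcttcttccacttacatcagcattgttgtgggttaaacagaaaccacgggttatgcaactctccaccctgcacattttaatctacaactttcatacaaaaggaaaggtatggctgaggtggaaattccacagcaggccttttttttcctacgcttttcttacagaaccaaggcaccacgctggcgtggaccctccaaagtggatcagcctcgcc
Ctsc, chr7:88277835-88278134, plus strand: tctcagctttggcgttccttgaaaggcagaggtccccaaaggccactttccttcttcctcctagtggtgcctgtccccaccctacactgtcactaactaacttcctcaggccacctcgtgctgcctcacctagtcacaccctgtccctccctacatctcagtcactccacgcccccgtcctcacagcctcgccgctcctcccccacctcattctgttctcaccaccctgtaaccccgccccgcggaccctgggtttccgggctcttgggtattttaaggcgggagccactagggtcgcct
In the Ctsd window the cores began 245 and 98 bases before the start. In the Ctsa window they lay on either side of the start, the first beginning 12 bases before it, whereas the other Ctsa window held none. The single core of Ctsl began 236 bases before the start.

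Because the 3′ kit counts each captured transcript once, CPM was not divided by gene length, and levels were compared between classes for 1 gene at a time. The order of levels covers the 11 classes with at least 100 cells in each library, which leaves out plasma-like and erythroid-like cells. Ctsb, a broad endopeptidase, stood at 3179 CPM in WT Kupffer-like cells (95% Poisson interval 3106 to 3252) and 3491 in N-LKO (3442 to 3541). The next of the 11 classes, hepatic stellate-like cells, held 1215 and 1026 CPM, and the 56 and 124 erythroid-like cells held 1113 and 1217 CPM. Of the stellate-like cells 88.5% in WT and 78.2% in N-LKO held markers of an unrelated class, and their Kupffer markers summed to 3420 and 2404 CPM. The same limit holds for their Ctsc and Ctsd levels below. In N-LKO their Ctsb interval (968 to 1087) overlapped that of neutrophil-like cells (956 to 1076). The lowest Ctsb levels among the 11 classes were 204 CPM in WT conventional dendritic-like cells and 314 CPM in N-LKO cholangiocyte-like cells. Ctss, which cleaves the invariant chain of MHC class II in antigen-presenting cells, followed the macrophage line. It stood at 1253 CPM in WT against 1482 in N-LKO Kupffer-like cells, and at 873 and 972 CPM in macrophage-like cells. In hepatocyte-like cells Ctss was lowest, at 39.7 CPM in WT against 79.7 in N-LKO, where free RNA (transcripts loose in the droplets) was estimated at 43.1 and 82.6 CPM. All free RNA estimates here rest on barcodes under 500 UMIs. The files held no barcode under 326 UMIs in WT or 377 in N-LKO, so the estimates may include cells of low depth. After thinning each cell to 1000 UMIs, 67.4% of WT and 72.5% of N-LKO Kupffer-like cells had a Ctss UMI, against 4.15% and 7.48% of hepatocyte-like cells. Without thinning these shares were 78.3%, 83.5%, 6.29% and 12.8%, at median depths of 1362, 1469.5, 1520 and 1788 UMIs per cell, and the hepatocyte-like share was read as background.

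Ctsl departed from that order. This endopeptidase, made in many tissues, was highest in endothelial-like cells at 374 CPM in WT (349.7 to 401) and 426 CPM in N-LKO (400.3 to 452). Plasmacytoid dendritic-like cells held 368 and 371 CPM, and their intervals overlapped those of endothelial-like cells in both libraries. Kupffer-like cells held 194 CPM in WT against 269 in N-LKO. Ctsk, the collagen-degrading cathepsin of osteoclasts, was rare everywhere. Its highest level was in hepatic stellate-like cells, with 16 UMIs in WT (9.53 CPM) and 14 in N-LKO (12.3 CPM). No pair of neighbouring classes in its order could be separated beyond their intervals in either library.

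The exopeptidases were also highest in Kupffer-like cells. Ctsc, the dipeptidyl peptidase that activates granule serine proteases of leukocytes, stood at 1426 CPM in WT Kupffer-like cells and 1007 CPM in N-LKO. Second of the 11 classes came hepatic stellate-like cells in WT at 533 CPM and macrophage-like cells in N-LKO at 397 CPM. Ctsc was lowest in endothelial-like cells at 36.7 and 65.9 CPM, against 31.2 and 48.3 CPM estimated for free RNA. Ctsh, an aminopeptidase, stood at 348 and 334 CPM in Kupffer-like cells and 264 and 235 CPM in plasmacytoid dendritic-like cells, whose intervals overlapped in WT. It was lowest in endothelial-like cells at 35.3 and 49.2 CPM. Ctsz, a carboxypeptidase, stood at 299.8 and 420.2 CPM in Kupffer-like cells and 251 and 254 CPM in macrophage-like cells. The Ctsz intervals of these 2 classes did not overlap in N-LKO.

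Ctsd, the aspartic protease, reached its highest level in Kupffer-like cells, at 1388 CPM in WT (1341 to 1437) and 2001 CPM in N-LKO (1963 to 2039). The next of the 11 classes was hepatic stellate-like in WT at 508 CPM and neutrophil-like in N-LKO at 582 CPM, and the erythroid-like cells held 367 and 810 CPM. Ctsa stood at 229.8 and 209 CPM in Kupffer-like cells, with no other of the 11 classes above 115 CPM. Cst3, the inhibitor, had a different home. Conventional dendritic-like cells held 7597 CPM in WT (7312 to 7890) and 6585 CPM in N-LKO (6417 to 6756), 4.18 and 4.12 times the level in macrophage-like cells, which came second in both libraries. Kupffer-like cells held 811 and 1039 CPM of Cst3. Counting all kept cells, Kupffer-like cells carried 34.2% of the Ctsb UMIs in WT and 46.2% in N-LKO, shares that also follow how many Kupffer-like cells were caught (1598 and 3404).

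**Figure D1:**
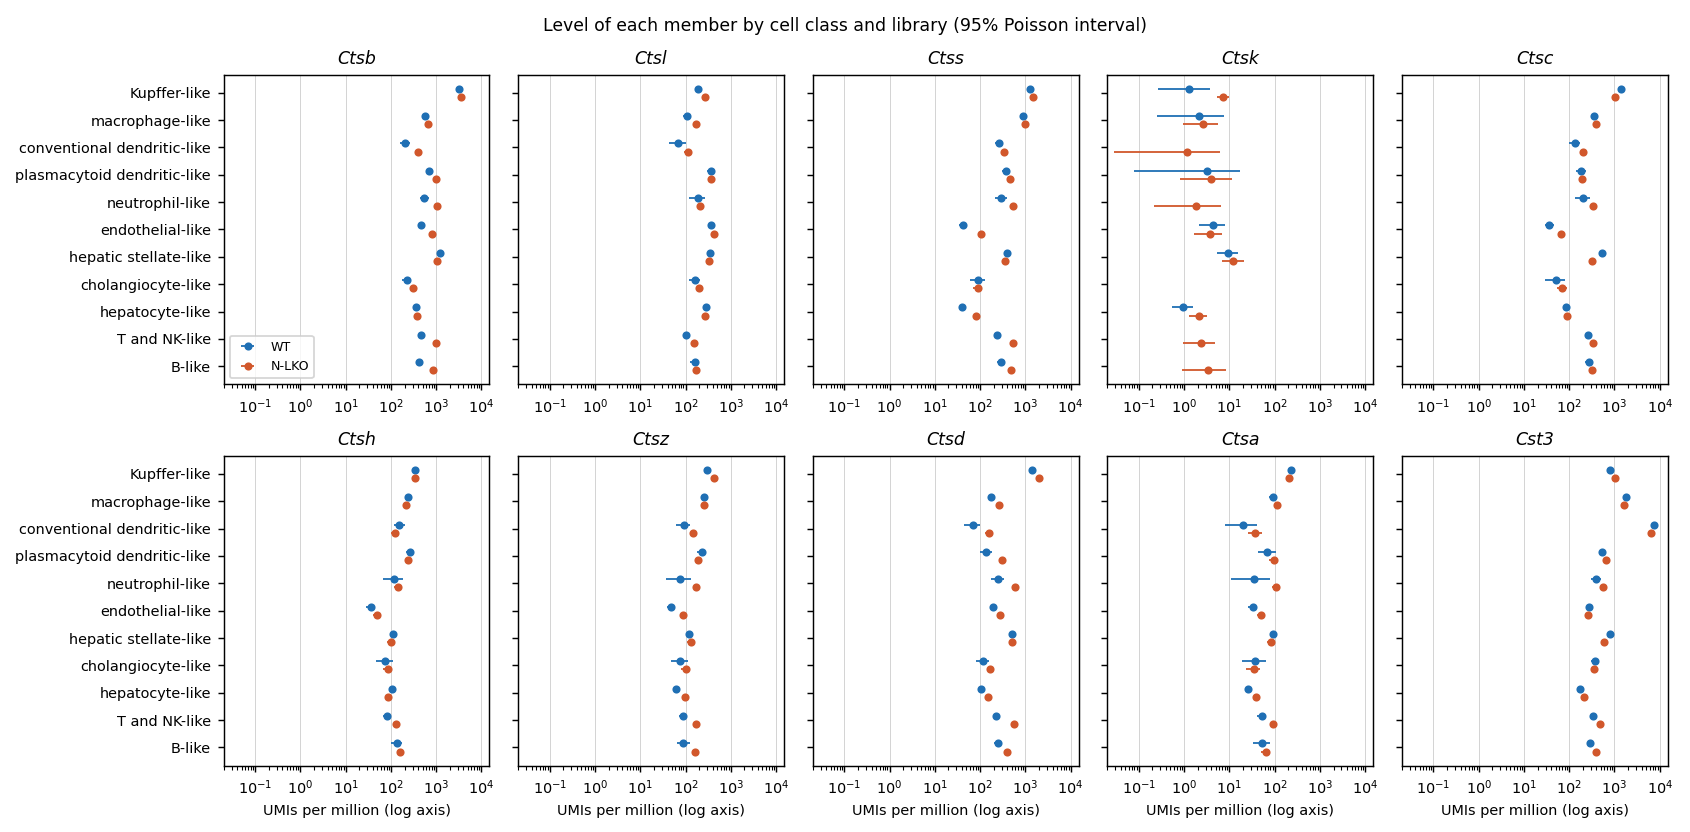
Level of each of the 10 genes in 11 cell classes, in CPM on a log axis, with WT in blue and N-LKO in orange and bars for the 95% Poisson interval. A class at 0 UMIs has no point. Kupffer-like cells hold the highest point for Ctsb, Ctss, Ctsc, Ctsh, Ctsz, Ctsd and Ctsa, endothelial-like cells for Ctsl, hepatic stellate-like cells for Ctsk and conventional dendritic-like cells for Cst3.

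The first comparison asked how the 10 genes differed between N-LKO and WT Kupffer-like cells, the resident macrophages of the sinusoid. Ctsd, Ctsz, Ctsl, Cst3, Ctss and Ctsb were higher in N-LKO beyond counting error, and Ctsc was lower. Ctsd gave a log2 ratio of 0.53 (interval 0.47 to 0.58), or 1.44-fold. Ctsz gave 0.49 (0.36 to 0.61) and Ctsl 0.47 (0.32 to 0.63). Cst3 gave 0.36 (0.28 to 0.43), Ctss 0.24 (0.18 to 0.30) and Ctsb 0.14 (0.10 to 0.17). These increases were all under 1.5-fold, and those of Ctsb and Ctss were small.

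Ctsc was lower in N-LKO Kupffer-like cells, with a log2 ratio of -0.50 (-0.56 to -0.44), while Ctsh at -0.06 (-0.18 to 0.06) and Ctsa at -0.14 (-0.28 to 0.02) did not differ beyond counting error. Ctsk gave 40 UMIs among 3404 N-LKO cells and 3 UMIs among 1598 WT cells, a log2 ratio of 2.30 with a wide interval (0.85 to 4.84). Ctsk was thereby the only 1 of the 10 expressed members past 1.5-fold, expressed meaning at least 5 CPM in 1 of the libraries. At 1.30 CPM in WT and 7.33 in N-LKO, Ctsk met that level only through the library in which it was high, so the count says little about the members. Among all 10746 genes expressed in these cells, 11.2% were higher by at least 1.5-fold and 15.6% lower. The members' median log2 ratio was 0.30, and that of all expressed genes was -0.06. With a mitochondrial limit of 10%, which left 22 N-LKO Kupffer-like cells, the ratios of Ctsc, Ctsz and Ctsa turned to 0.55, -0.22 and 0.66. Relative to expressed genes of like genomic span, 5 members were past 1.5-fold higher.

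Other macrophage genes moved in the same cells. The summed level of 12 macrophage and monocyte markers was 2726 CPM in WT against 4455 in N-LKO, with 11 of the 12 higher, whereas the 10 Kupffer markers summed to 11234 and 9355 CPM, with 1 of the 10 higher. No marker of either list was at 0 in either library. The part of this shift in the cathepsin ratios was not tested. The Kupffer-like cells were also split by Gpnmb, 1 of those 12 markers and a glycoprotein of lipid-laden macrophages, after thinning each cell to 1000 UMIs. Cells with a Gpnmb UMI made up 10.6% of the WT Kupffer-like cells and 31.0% of those in N-LKO.

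Kupffer-like cells with a Gpnmb UMI differed from those without in the same direction in both libraries for 7 of the 9 cathepsins, and Ctsh did not differ beyond counting error in either. The share of all genes that did so was not taken, so this count cannot be set against other genes. Ctsd stood at 2189 CPM with Gpnmb and 1218 CPM without in WT (log2 0.85, 0.68 to 1.01), and at 2804 and 1583 CPM in N-LKO (0.82, 0.75 to 0.89). Ctsb was higher with Gpnmb by 0.36 in WT and 0.45 in N-LKO on the log2 scale, Ctss by 0.42 and 0.38, and Ctsz by 0.65 and 0.32. Ctsl was higher by 0.76 and 0.40, and Ctsa gave 0.43 and 0.35 with a WT interval that covered 0. Ctsc was lower with Gpnmb, at 899 against 1474 CPM in WT (-0.71, -0.96 to -0.47) and 731 against 1096 CPM in N-LKO (-0.58, -0.70 to -0.47). Ctsk gave 20 UMIs in 1055 N-LKO cells with Gpnmb and 9 in 2349 without, and none in WT cells of either kind after thinning. Genes of Kupffer and lipid-associated macrophages split the same cells, with Clec4f at log2 ratios of -1.63 in WT and -0.85 in N-LKO, and Trem2 at 2.10 and 0.99.

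Within each kind of cell the N-LKO and WT libraries were then compared. Among cells without a Gpnmb UMI, Ctsd was higher in N-LKO by 0.38 (0.30 to 0.46), Ctsl by 0.54 (0.31 to 0.77), Ctsz by 0.46 (0.29 to 0.63), Cst3 by 0.36 (0.26 to 0.47) and Ctss by 0.18 (0.10 to 0.27). Ctsc was lower, with a log2 ratio of -0.43 (-0.51 to -0.34), and Ctsb gave 0.00 (-0.05 to 0.06). Among cells with a Gpnmb UMI, Ctsd was higher by 0.36 (0.20 to 0.52) and Ctsc lower, at -0.30 (-0.55 to -0.04), while Ctsb, Ctsl, Ctss, Ctsz and Cst3 gave positive ratios between 0.09 and 0.20 with intervals that covered 0. The Ctsd and Ctsc differences were thus present within both kinds of cell, and that of Ctsb exceeded counting error in neither. Cells without a Gpnmb UMI were not alike between libraries, with Trem2 at 72.1 CPM in WT against 211 in N-LKO and Clec4f at 1569 and 920 CPM. The split therefore does not hold cell state fixed.

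**Figure D2:**
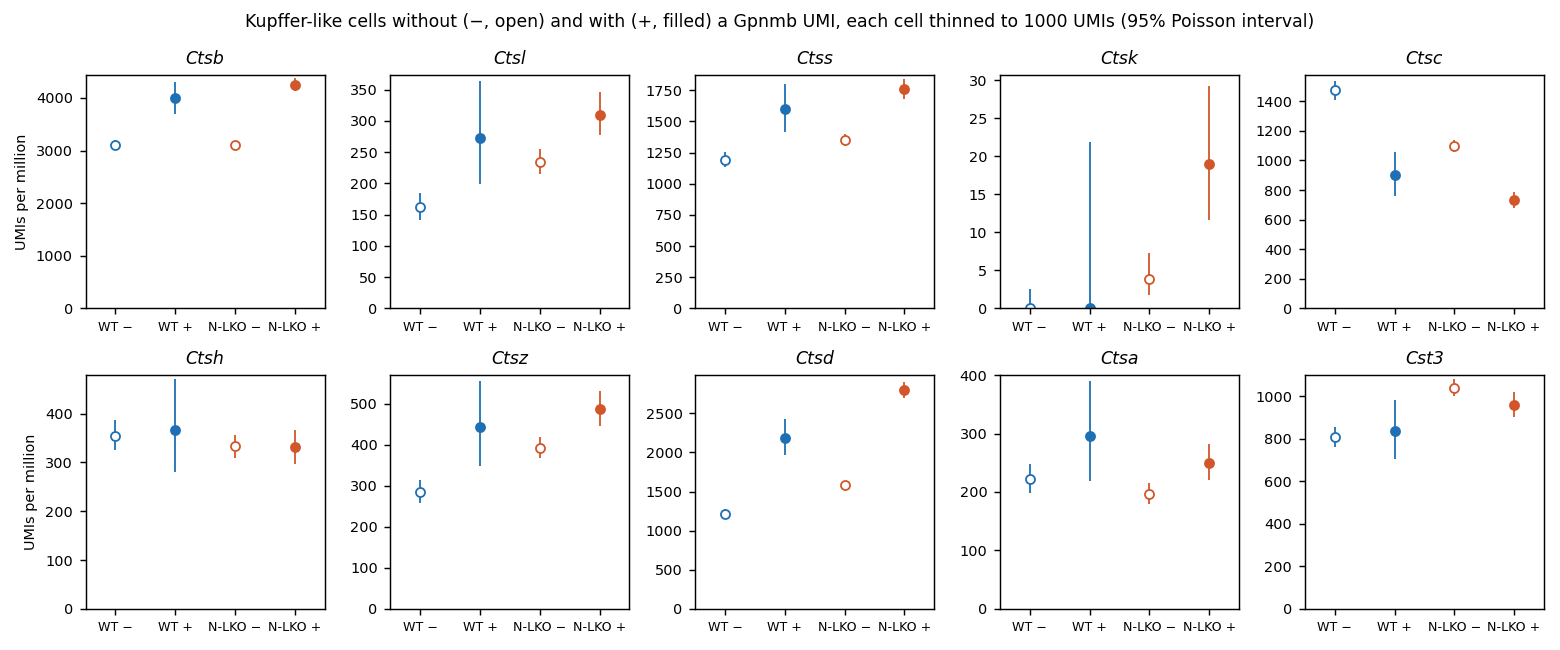
Level of each gene in Kupffer-like cells without (open points) and with (filled points) a Gpnmb UMI, WT in blue and N-LKO in orange, in CPM after thinning each cell to 1000 UMIs, with 95% Poisson intervals. Ctsd is higher and Ctsc lower in filled than open points of both libraries, and within open points Ctsd is higher in N-LKO.

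Macrophage-like cells, the cluster scoring highest for macrophage and monocyte markers, numbered 731 in WT and 1729 in N-LKO. Ctsl stood at 106 CPM in WT against 167 in N-LKO (log2 0.66, 0.34 to 0.99), and Ctsd at 175 and 262 CPM (0.58, 0.34 to 0.84). Ctsb gave 0.25 (0.11 to 0.40) and Ctss 0.15 (0.04 to 0.27). Cst3 was lower, at 1818 and 1597 CPM (-0.19, -0.27 to -0.10). Ctsl was the only 1 of 9 expressed members past 1.5-fold, where 16.8% of 11132 expressed genes were higher by that fold and 21% lower. The median of the members was 0.17 and that of all expressed genes -0.03. The estimated free RNA level of Ctsd was 136 CPM of the 262 CPM in N-LKO, and after free RNA was subtracted the log2 ratio was -0.01 for Ctsd and -0.05 for Ctsb. Without the cells that held markers of an unrelated class, or after subtraction of free RNA, no member was past 1.5-fold.

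In endothelial-like cells 5 of 9 expressed members were higher in N-LKO by at least 1.5-fold and none lower, where 17.8% of 11242 expressed genes were higher and 17.5% lower. Ctss stood at 42.0 CPM in WT against 104 in N-LKO (log2 1.31, 0.97 to 1.67). Ctsz stood at 46.8 and 86.7 CPM (0.89, 0.55 to 1.24), Ctsc at 36.7 and 65.9 CPM (0.84, 0.46 to 1.25) and Ctsa at 33.1 and 50.1 CPM (0.59, 0.17 to 1.03). Ctsb, the most counted of the 5, stood at 471 and 805 CPM (0.77, 0.67 to 0.88). Ctsd gave 0.49 (0.32 to 0.67) and Ctsh 0.48 (0.06 to 0.91), and Ctsl, the member highest in this class, gave 0.18 (0.05 to 0.32). Cst3 at -0.10 (-0.26 to 0.06) did not differ beyond counting error. The members' median was 0.59 and that of all expressed genes 0.03.

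Macrophage transcripts also stood higher in the N-LKO endothelial-like cells. Their 12 macrophage and monocyte markers summed to 236 CPM in WT against 538 in N-LKO, with all 12 higher and none at 0, and the 10 Kupffer markers to 376 and 595 CPM, with 8 of 10 higher. The barcodes under 500 UMIs, used as the free RNA profile, held more of these members in N-LKO. Ctsb stood there at 279 CPM in WT against 545 in N-LKO, Ctsd at 104 and 294 CPM, and Ctss at 52.3 and 142 CPM. Whether those barcodes held loose RNA or cells of low depth was not tested. After subtraction of the estimated free RNA the log2 ratio was 0.70 for Ctsb, 1.06 for Ctss, 1.68 for Ctsc, 0.34 for Ctsz, 0.19 for Ctsa and -0.15 for Ctsd. The share of endothelial-like cells with UMIs of at least 2 markers of an unrelated class was 17.4% in WT and 35.2% in N-LKO. Without those cells, which left 1500 and 1218, the ratios were 0.78 for Ctsb, 1.29 for Ctss, 0.27 for Ctsd, 0.89 for Ctsz, 0.86 for Ctsc and 0.55 for Ctsa. Ctsb and Ctss were thus past 1.5-fold under both settings. So was Ctsc, but its free RNA was estimated at 31.2 of 36.7 CPM in WT and 48.3 of 65.9 CPM in N-LKO. The interval of its WT level (29.2 to 45.4) covered that estimate, so its ratio after subtraction cannot be read as a size. The part of the macrophage transcripts in these ratios was not tested.

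The hepatocyte-like class was named from hepatocyte markers, and hepatocytes were the cells the deletion was aimed at. Of its 4588 N-LKO cells, however, 2486 lay in the larger cluster of low Alb. That cluster scored under 0.2 for hepatocyte markers, above the lowest score of 0.15 that was set after seeing the data. How many of its cells were hepatocytes was not tested. In hepatocyte-like cells free RNA was estimated at 230.3 CPM of Ctsb in WT and 316 in N-LKO. Ctsb stood at 363 CPM in WT against 371 in N-LKO (log2 0.03, -0.03 to 0.09), Ctsl at 289 and 274 CPM (-0.07, -0.14 to -0.01) and Ctsc at 83.6 and 89.5 CPM (0.10, -0.03 to 0.22). Ctsh was lower at 104 and 87.7 CPM (-0.24, -0.36 to -0.12). Ctsd stood at 103 and 147 CPM (0.51, 0.40 to 0.61) and Cst3 at 174 and 212 CPM (0.28, 0.20 to 0.37). Ctss, Ctsz and Ctsa were past 1.5-fold, 3 of 9 expressed members, and none was lower, where 43.8% of 10743 expressed genes were higher by that fold and 7.34% lower. The median of the members was 0.28 and that of all expressed genes 0.45. Free RNA was estimated at 82.4% of the UMIs of WT hepatocyte-like cells and 57.9% in N-LKO. The estimate for Ctsd in N-LKO, 171 CPM, exceeded the level in the cells, as did those for Ctss in both libraries, so neither gene has a ratio after subtraction that can be read as a size. With free RNA subtracted the ratios were -2.22 for Ctsb, -1.35 for Ctsl, -1.07 for Ctsh, -0.85 for Ctsc and -0.39 for Ctsz, so those of Ctsb, Ctsc and Ctsz turned direction, and 0.25 for Ctsa and 0.91 for Cst3.

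The N-LKO hepatocyte-like clusters differed between themselves. Ctsl stood at 399 CPM (381 to 418) in the smaller cluster and 158 CPM (147 to 169.7) in the larger cluster, against 305 CPM in the main WT cluster. Cst3 stood at 302 and 130 CPM, against 176 CPM in WT, and Ctsb at 427 and 318 CPM. Ctsc ran the other way, at 59.3 CPM in the smaller cluster and 118 CPM in the larger, and the Ctsd intervals overlapped at 149.9 and 145 CPM. Without the larger cluster the hepatocyte-like ratios were 0.45 for Ctsl, -0.49 for Ctsc and 0.13 for Ctsh, so all of these turned direction, and that of Cst3 was 0.77.

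**Figure D3:**
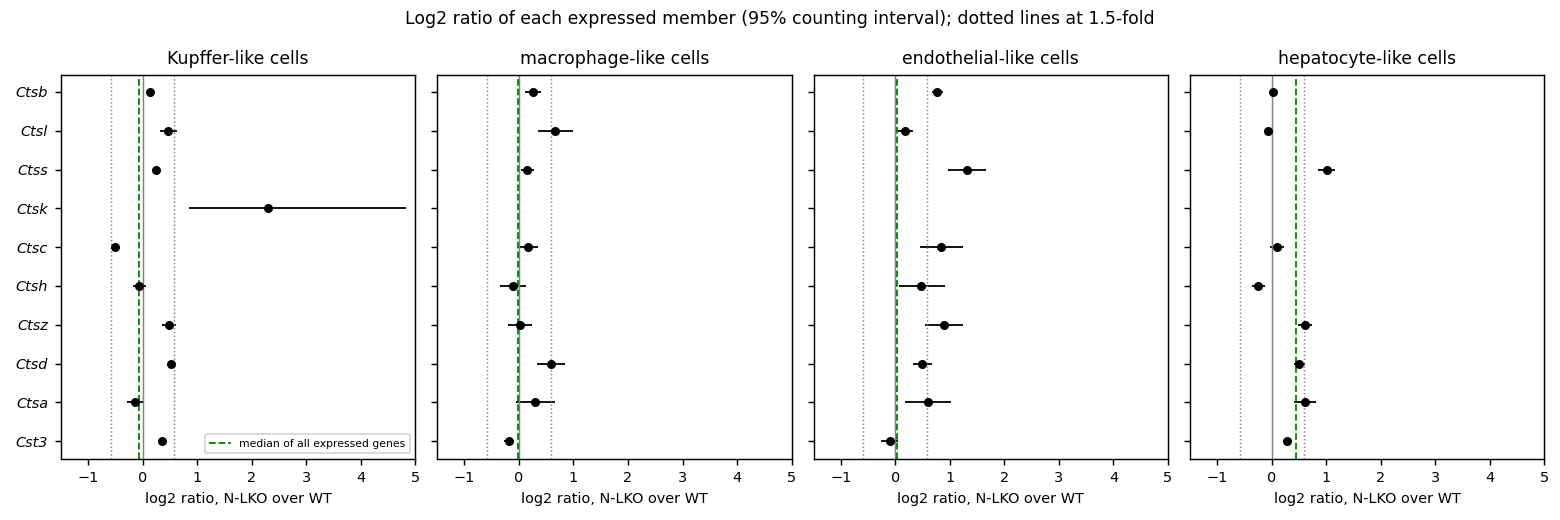
Log2 ratio of N-LKO over WT for each expressed gene in 4 cell classes, with 95% counting intervals. The dashed green line is the median of all expressed genes and the dotted lines lie at 1.5-fold. The endothelial-like points lie mostly right of the dashed line, and in hepatocyte-like cells 4 points (Ctsa, Ctsd, Ctss and Ctsz) lie right of it.

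Among the 11 classes the members' median was highest in neutrophil-like cells at 0.86 and T and NK-like cells at 0.80. In T and NK-like cells 6 of 9 expressed members were higher by at least 1.5-fold and none lower, where 24.1% of 11690 expressed genes were higher and 18.4% lower. Ctsd stood at 229 CPM in WT against 564 in N-LKO (log2 1.30, 1.13 to 1.47), Ctss at 232 and 527 CPM (1.18, 1.02 to 1.35) and Ctsb at 463 and 981 CPM (1.08, 0.97 to 1.20). In the same cells the macrophage and monocyte markers summed to 823 CPM in WT against 2052 in N-LKO, with 11 of 12 higher, and 30.5% of WT and 64.4% of N-LKO cells held markers of an unrelated class. Without those cells the ratio was 0.76 for Ctsd, 0.43 for Ctss and 0.86 for Ctsb. In B-like cells 4 of 9 members were higher, against 25.5% of genes, with the macrophage and monocyte markers at 560 and 1609 CPM. Neutrophil-like cells, 105 in WT, had 6 of 9 members higher and none lower, where 24.4% of genes were higher and 34.5% lower, with Ctsd at 246 CPM in WT against 582 in N-LKO (1.22, 0.76 to 1.77) and the macrophage and monocyte markers at 1567 and 2511 CPM. Of the neutrophil-like cells 71.4% in WT and 85.8% in N-LKO held markers of an unrelated class, and Ctsa and Ctsz had 5 and 11 WT UMIs. Without such cells, which left 30 and 103, the ratio was 0.07 for Ctsb, 0.50 for Ctss, -1.21 for Ctsh and 1.03 for Ctsl. In all cells of the class these were 0.88, 0.86, 0.23 and 0.18. The part of the macrophage and monocyte markers in the ratios of these classes was not tested.

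Dendritic classes split by gene. In conventional dendritic-like cells 5 of 9 members were higher, against 22.5% of genes, led by Ctsd at 68.1 CPM in WT against 156 in N-LKO (1.17, 0.56 to 1.88) and Ctsb at 204 and 402 CPM (0.97, 0.61 to 1.36). Cst3, their characteristic member, was lower, at -0.21 (-0.27 to -0.14). Their macrophage and monocyte markers summed to 761 and 1693 CPM, with 11 of 12 higher and Chil3 and Ace at 0 in WT. In plasmacytoid dendritic-like cells only Ctsd was past 1.5-fold (1.11, 0.65 to 1.62), 1 of 9 members, where 23.7% of genes were higher and 25.1% lower, and with a minimum of 2000 UMIs per cell its ratio was -0.33. Hepatic stellate-like cells had no member higher by 1.5-fold, against 19% of genes, and 1 of 10 lower, against 22%. That gene was Ctsc, at 533 CPM in WT against 312 in N-LKO (-0.77, -0.95 to -0.59), in cells whose 10 Kupffer markers summed to 3420 and 2404 CPM, with none of the 10 higher in N-LKO. Of these stellate-like cells 88.5% in WT and 78.2% in N-LKO held markers of an unrelated class, and among the 104 and 140 cells left without them the Ctsc ratio was 0.33. In those cells 6 members were higher by 1.5-fold and 1 lower, the members' median went from -0.12 to 0.79, and the ratios were 1.25 for Ctsb, 1.93 for Ctsh, 1.01 for Ctsz, 0.81 for Ctss, 0.78 for Ctsd and -0.94 for Cst3. The share of all genes past that fold was not taken for these few cells, so the count cannot be read as a result about the members. These ratios carry no interval. In cholangiocyte-like cells no member was past 1.5-fold, where 23.4% of genes were higher and 23.2% lower.

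**Figure D4:**
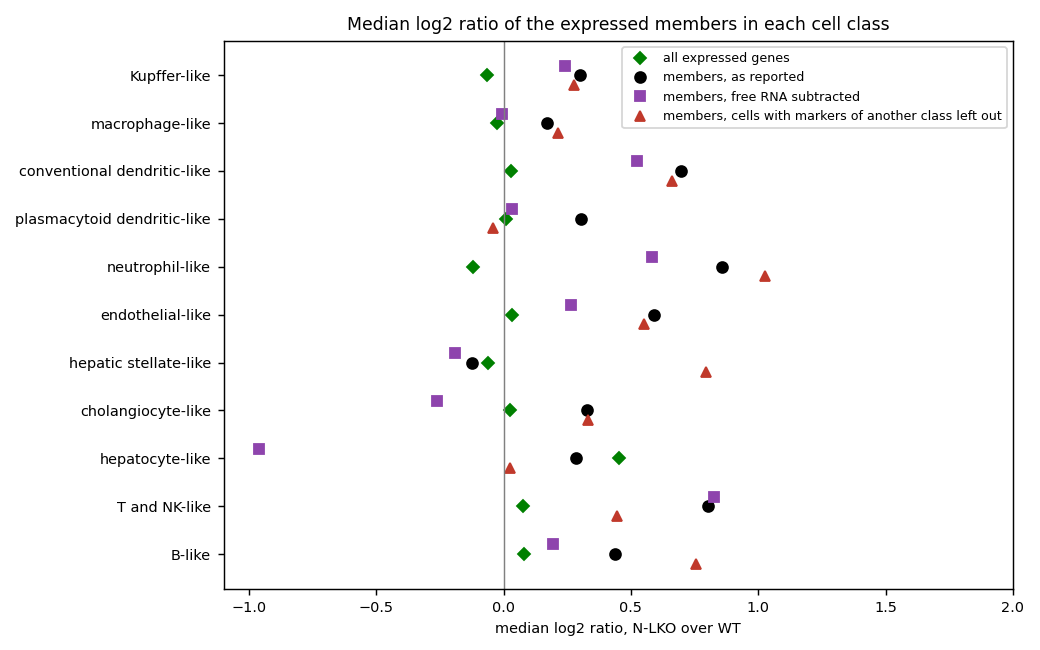
Median log2 ratio of the expressed members in each of 11 classes (black circles), after subtraction of free RNA (purple squares) and without cells that hold markers of another class (red triangles), beside the median of all expressed genes (green diamonds). T and NK-like cells move from 0.80 to 0.45 without such cells, and hepatocyte-like cells to -0.96 after subtraction of free RNA.

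Other lysosome genes were read against the share of all expressed genes past 1.5-fold, in Kupffer-like cells 11.2% higher and 15.6% lower. In Kupffer-like cells 7 of 31 expressed glycosidases, sulfatases and lipid enzymes were higher by 1.5-fold and 1, the sphingomyelinase Smpd1, lower (median log2 0.13), led by Gusb, beta-glucuronidase, at 94.6 CPM in WT against 179 in N-LKO (0.92, 0.71 to 1.14). Of 16 proton pump genes 2 were higher and none lower, led by Atp6v0d2, a subunit of osteoclasts and macrophages, at 60.5 and 184 CPM (1.60, 1.35 to 1.87). Of 11 membrane genes 1 was higher and 1 lower, the tetraspanin Cd63 at 108 and 419 CPM (1.95, 1.77 to 2.15) and the cystine exporter Ctns at 20.3 and 12.3 CPM (-0.73, -1.29 to -0.16). Of 12 sorting genes 3 were higher, led by Gnptab, which builds the mannose-6-phosphate tag, at 25.9 and 44.0 CPM (0.75, 0.35 to 1.20). None of 8 regulators was past 1.5-fold, and Tfeb stood at 28.5 and 39.6 CPM (0.47, 0.07 to 0.89). Of 7 other cathepsins and peptidases expressed among 10 listed, 1 was higher, the dipeptidyl peptidase Dpp7. Cstb, the only 1 of 10 other cystatins and stefins expressed and an inhibitor inside the cell, stood at 283 and 411 CPM (0.54, 0.42 to 0.67).

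The MHC class II loading genes, which work with Ctss, were counted the same way. In Kupffer-like cells none of 7 was past 1.5-fold (median 0.35), with Cd74, the invariant chain, at 2880 CPM in WT against 4019 in N-LKO. In endothelial-like cells 6 of 7 were higher (median 1.23), against 17.8% of genes, with Cd74 at 121 and 359 CPM (1.57, 1.37 to 1.77). In hepatocyte-like cells 6 of 7 were higher (median 1.14), against 43.8% of genes, with Cd74 at 112 and 268 CPM. The macrophage and monocyte markers were higher in these classes too, at 236 and 538 CPM in endothelial-like and 655 and 995 CPM in hepatocyte-like cells, and their part was not tested. In T and NK-like cells 7 of 7 were higher and in neutrophil-like cells 5 of 7, against 24.1% and 24.4% of genes. In the endothelial-like cells 9 of 31 glycosidases, sulfatases and lipid enzymes were higher, against that 17.8% of genes, and none lower. Of 11 membrane genes 4 were higher in these cells and 1 lower (median 0.24). The highest and lowest named of them were Cd63 at 12.4 and 91.2 CPM (log2 2.86) and Lamp1 at 338 and 299.5 CPM (-0.17, -0.32 to -0.03). In hepatocyte-like cells Manba, beta-mannosidase, stood at 13.6 and 49.1 CPM (1.85, 1.62 to 2.09). Of 12 sorting genes 5 were higher there and none lower, near that 43.8% of genes. The highest and lowest named of them were the mannose-6-phosphate receptors. Igf2r stood at 17.0 and 33.2 CPM (0.96, 0.73 to 1.20) and M6pr at 52.3 and 39.0 CPM (-0.42, -0.60 to -0.25). The median of all expressed genes was 0.45, and free RNA was not subtracted from these levels.

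Likeness of pattern was described by Pearson's r of log2(CPM + 1) over 22 points, the 11 classes in each library, which share depth and free RNA within a library. Ctsb was most like Ctsd (0.94), Grn, the progranulin gene (0.94), and Lgmn, asparagine endopeptidase (0.94). Ctsd was most like Pld3 (0.97), Lgmn (0.96) and C1qb (0.95). Ctss ran with Cd300c2, Adam17 and Cd68 (0.95 each), and Ctsc with Aoah (0.97), Tent5a (0.96) and Fcgr4 (0.95). Ctsz came closest to Tgfbr1 (0.93), Ptprj (0.92) and Cd68 (0.90), Ctsh to Ctsz (0.88), Mpeg1 (0.87) and Ly86 (0.86), and Ctsa to Acp2 (0.93), Sat1 (0.93) and Slc15a3 (0.91). Cst3 was most like Rab43, Ppt1 and Plbd1 (0.92, 0.92 and 0.91). Ctsl stood apart with Peli2 (0.84), Lamp2 (0.81) and Lifr (0.78), and its r with Ctss was -0.25. Ctsk gave Herpud2, Hgf and Qk (0.79, 0.78 and 0.77) on very few UMIs.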

How the data were processed

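Liver cells of 1 WT and 1 N-LKO library were profiled with a 10x 3′ v3 kit. The deposited matrices hold raw UMI counts per gene and barcode, made by the authors with Cell Ranger (version 7.1.0 in the file header), and the submitters' processing notes name Seurat and mm9. The annotation was not given in the sources used here. Barcodes with at least 1000 UMIs, at least 400 genes and at most 30% mitochondrial UMIs were kept. Doublets scored at 0.25 or more were removed, 1728 (8.57%) in WT and 2361 (10.6%) in N-LKO. Cells of both libraries were clustered together (2000 variable genes without lysosome genes, 30 components, 20 neighbours, Leiden resolution 0.3, Scanpy 1.11.5, leidenalg 0.10.2), and classes were named from marker lists. The lowest score for a name was set to 0.15 after seeing the data.

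UMIs were summed per class and library and scaled to CPM, with exact Poisson intervals (levels), conditional binomial intervals (ratios, prior of 0.5 UMIs) and Clopper-Pearson intervals (shares) at 95%, from SciPy 1.17.1 in Python 3.11.15. Ratios need 100 cells per class, and expressed means at least 5 CPM. Free RNA was estimated from barcodes under 500 UMIs. Its share was set by taking all hepatocyte marker UMIs in other classes as free. For hepatocyte-like cells the markers of Kupffer, endothelial, T and B cells were taken as free. Interval code was tested on simulated data: of 200 changed genes among 10336 in Kupffer-like cells, intervals held the true ratio for 97%, and for 93.8% of the unchanged genes. The members and lists were chosen with earlier results of these data known. Named genes were the 10 members, the 3 most alike in pattern per member, and per class the highest and lowest of each list among genes of at least 20 CPM. The split by Gpnmb, and the clusters and other genes outside that rule (Smpd1, Dpp7, Clec4f, Trem2, Alb), were chosen after values were seen. Alternatives covered cell filters, clustering, scaling, free RNA and fold.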

Additional observations from a re-analysis of the deposited data

Results flagged for a closer look

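Ctsc differed in direction between classes. Its log2 ratio of N-LKO over WT was 0.84 in endothelial-like cells and -0.77 in hepatic stellate-like cells, a gap of 1.61. The endothelial-like level was 36.7 CPM in WT and 65.9 in N-LKO, of which 31.2 and 48.3 CPM were estimated as free RNA. With 1 library per genotype the difference was not tested, and without cells that held markers of an unrelated class the hepatic stellate-like Ctsc ratio was 0.33.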

How the results depend on the processing

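No paired analysis was possible because the libraries share only 1 replicate number. With 1 library per genotype, genotype, tumor and library cannot be told apart, and the median depth of 1400 and 1455 UMIs per cell limits low members such as Ctsk. Among single-gene ratios of members, 1153 values under an alternative stayed within their interval, 258 moved past it and 4 turned direction from a reported ratio past 1.5-fold. Those were Ctsd in plasmacytoid dendritic-like cells with a minimum of 2000 UMIs (-0.33), Ctsc in hepatic stellate-like cells without cells holding other markers (0.33), and Ctss and Ctsz in hepatocyte-like cells after subtraction of free RNA (-0.12 and -0.39), where the Ctss estimate exceeded its level. Counting smaller reported ratios as well, values of opposite sign numbered from 1 for Ctsk to 16 for Cst3 per member. Of counts and medians of members, 280 stayed and 61 moved, and the causes were not tested.

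The number of members past 1.5-fold in Kupffer-like cells (1) was 2 with a mitochondrial limit of 10%, scaled to non-mitochondrial UMIs or relative to the median of all genes, 5 relative to genes of like span, and 0 without Gpnmb cells. In macrophage-like cells (1) it was 2 with lysosome genes kept in clustering, resolution 0.6, non-mitochondrial scaling, means of single cells, relative to the median or without shared barcodes, 3 relative to like span, and 0 after free RNA subtraction, without cells holding other markers or at a fold of 2. In conventional dendritic-like cells (5) it was 2 with a minimum of 500 UMIs or no mitochondrial limit, and 1 with a limit of 10%, no doublet removal or a fold of 2. In plasmacytoid dendritic-like cells (1) it was 7 with a limit of 10%, 2 with no limit, non-mitochondrial scaling or free RNA subtraction, and 4 relative to like span, and the median was -0.40 with a minimum of 2000 UMIs and 0.62 with a limit of 10%. A fold of 2 gave 3 in neutrophil-like, 1 in endothelial-like, 0 in hepatic stellate-like, 1 in hepatocyte-like, 3 in T and NK-like and 1 in B-like cells. In hepatic stellate-like cells (1) the number was 7 without cells holding other markers and 2 relative to like span, with medians of 0.79 and 0.14, and the median was 0.17 with a limit of 10%.

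In cholangiocyte-like cells (0) the number of members was 1 with a minimum of 500 UMIs, no doublet removal, like span or no minimum level, 2 with means of single cells or thinning, 3 after free RNA subtraction (all lower) or without cells holding other markers, 4 with no mitochondrial limit and 5 with a minimum of 2000 UMIs, and the median was 0.67 with that minimum and -0.26 after free RNA subtraction. In hepatocyte-like cells (3) it was 7 with a limit of 10%, 1 with non-mitochondrial scaling or relative to the median (lower), 6 after free RNA subtraction (5 lower) and 0 without cells holding other markers, with medians of 0.92 (limit of 10%), -0.96 (free RNA) and -0.17 (relative). The T and NK-like median was 0.45 without cells holding other markers, and in B-like cells the number was 2 with no mitochondrial limit and the median 0.20 after free RNA subtraction. Macrophage-like cells were not found with a minimum of 500 or 2000 UMIs, a limit of 10%, no limit or no doublet removal. The conventional dendritic-like class changed in the same settings, from 211 WT and 477 N-LKO cells as reported. It held 1374 and 3279 with the minimum of 500, 398 and 217 with the limit of 10%, 855 and 2489 with no limit and 947 and 2272 without doublet removal. Its numbers of members under those settings therefore describe a different set of cells. The minimum of 2000 UMIs also left no Kupffer-like, neutrophil-like, endothelial-like, hepatic stellate-like, T and NK-like or B-like class, and the limit of 10% no neutrophil-like or B-like class.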

Other observations

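Clusters outside the named classes also held the members. In a mixed cluster with Kupffer and endothelial markers, of 567 WT and 1356 N-LKO cells, Ctsc stood at 1093 CPM in WT against 729.9 in N-LKO, and Ctsd at 976 and 1137 CPM. In the cycling cluster of 153 WT and 268 N-LKO cells, Ctsd stood at 896 and 1465 CPM and Ctsc at 847 and 674 CPM. In plasma-like cells the Ctsb level was 145 CPM for WT (24 UMIs) and 360.0 for N-LKO (168 UMIs).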
